A study of Homo sapiens with 12 samples.

Results

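The genes described here encode the proteins of the cytoplasmic ribosome. They were taken by symbol: protein-coding genes named RPL or RPS with a number and an optional suffix, together with RPSA and the stalk genes RPLP0, RPLP1 and RPLP2, with pseudogenes, the RPS6K kinases and Y-linked genes left out. This gave 85 genes of the 65969 identifiers measured, of which 53 belong to the large subunit, 3 stalk genes included, and 32 to the small subunit. Of the 85, 77 encode standard components and 8 are paralogs, additional gene copies whose products resemble a standard component: RPL3L, RPL7L1, RPL10L, RPL22L1, RPL26L1, RPL36AL, RPL39L and RPS27L. A stricter reading of the symbols, without suffixes such as L1 or AL, gives 74 genes. RPL10L was at 0 counts in every library and did not pass the filter on low counts, so 84 genes were tested.

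The study depleted METTL14, a subunit of the enzyme that places N6-methyladenosine (m6A) on RNA, in embryoid bodies, the aggregates in which pluripotent cells differentiate. The 2 cell lines, H1 and MEL1, are established lines of human embryonic stem cells. Every group, the controls included, carried a lentiviral hairpin that doxycycline induces, was selected with puromycin, seeded at 500 cells per microwell and given doxycycline (2 µg/ml) over 10 days. In H1 there were 2 libraries each with the control hairpin SCR and with the METTL14 hairpins KD1, KD2 and KD3, and in MEL1 there was 1 SCR library, 2 KD1 libraries and 1 KD2 library. The labels do not say whether libraries came from separate cultures, so p-values measure the spread between these libraries, which may be technical.

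A ribosome holds 1 copy of nearly every ribosomal protein, and their messages are among the most abundant of a growing cell. Most of these messages begin with a 5′ terminal oligopyrimidine tract (TOP), a C followed by a run of C and T bases, through which growth signalling sets how many of them are translated together. RPL5 and RPL11 also bind MDM2 when ribosome assembly is disturbed, and changes in RPS19, RPS26, RPL5 or RPL11 cause Diamond-Blackfan anaemia. Paralogs such as RPL22L1 and RPL39L are known for expression that depends on tissue, whereas RPS27L is known as a target of p53.

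The start of the message is the sequence feature that sets these genes apart, so the start windows of the genes on which the results below turn are shown, each standard gene above its paralog where both had an entry. Each is 15 bases before and 15 bases from the RefSeq transcription start (GRCh38.p14), on the strand of the gene, with the longest run of C and T bases in capitals. RPL39L had no entry. For RPL13, RPS27A and RPL26L1, which have more than 1 annotated start, the window with the longest run is given.
RPS27 (chr1:153990747-153990776, plus strand): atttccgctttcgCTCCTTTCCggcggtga
RPS27L (chr15:63157463-63157492, minus strand): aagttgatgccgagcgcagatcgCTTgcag
RPL22 (chr1:6199581-6199610, minus strand): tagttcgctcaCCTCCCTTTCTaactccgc
RPL22L1 (chr3:170870181-170870210, minus strand): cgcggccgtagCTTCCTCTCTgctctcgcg
RPL26 (chr17:8383179-8383208, minus strand): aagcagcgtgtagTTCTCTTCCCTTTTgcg
RPL26L1 (chr5:172958714-172958743, plus strand): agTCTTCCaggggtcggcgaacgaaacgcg
RPL36A (chrX:101390996-101391025, plus strand): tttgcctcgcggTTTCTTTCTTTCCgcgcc
RPL36AL (chr14:49620612-49620641, minus strand): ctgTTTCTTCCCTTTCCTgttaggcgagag
RPL39 (chrX:119791616-119791645, minus strand): ttcttccgccagCTTCCCTCCTCTTCCTTT
RPS26 (chr12:56041903-56041932, plus strand): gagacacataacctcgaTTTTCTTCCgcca
RPS27A (chr2:55232673-55232702, plus strand): tgcgcggcgTTCTTCCTTTTCgatccgcca
RPL9 (chr4:39458908-39458937, minus strand): gtacgtaatgacgacagacgTTCTTTCTTT
RPL13 (chr16:89560667-89560696, plus strand): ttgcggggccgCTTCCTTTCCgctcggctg
RPL18 (chr19:48619164-48619193, minus strand): accccagcccgTTCTCTCTTTCCggacctg

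RefSeq windows were matched for 68 of the 85 genes. A start with C at the first base followed by 5 bases that are each C or T, read on the strand of the gene, was found at an annotated start of 46 of the 68 (67.6%), against 759 of 15843 protein-coding genes with a window (4.79%). It was present in 45 of 62 standard genes and in 1 of 6 paralogs, RPL22L1. The longest pyrimidine run had a median of 11 bases in the ribosomal protein genes and 5 in all protein-coding genes. For RPS26, RPL9 and RPS27L the printed run lies after the annotated start base rather than across it, and for RPL26L1 it ends before that base.

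The messages were short. The median transcript had 712 bases, against 2462 bases over 19887 protein-coding genes, and its GC content was 49.5% against 50.1%. The motif GGACT, a strong form of the m6A consensus, was searched on the sense strand only and occurred in the principal transcript of 44 of 85 genes (51.8%), compared with 86.3% of protein-coding genes. Per kilobase it occurred 0.782 times in ribosomal protein transcripts and 1.01 times over all protein-coding genes. A match to either motif is a description of these letters and not a mapped site.

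Ribosomal protein genes took a large and variable part of each library. Their share of the estimated counts ranged from 7.52% to 12.8% over the 12 libraries. In H1 the share was 11.2% and 10.9% with SCR, and from 8.88% to 12.5% with a median of 10.5% in the 6 knockdown libraries. In MEL1 it was 10.5% in the SCR library, 10.7% and 12.8% with KD1 and 7.52% with KD2. Knockdown libraries thus lay on both sides of the SCR libraries in each line. Within H1 the replicates of KD1, KD2 and KD3 were also apart, at 12.5% and 10.5%, 8.88% and 10.4%, and 11.6% and 10.3%. The ratio of large to small subunit counts was 1.57 and 1.54 with SCR in H1 and 1.58 to 1.65 in the 6 knockdown libraries, without overlap. The nearest values, 1.5724 with SCR and 1.5765 with KD2, were closer than the 2 SCR libraries to each other. No test was run on this ratio. In MEL1 it was 1.64 with SCR, above the 1.62, 1.59 and 1.62 of the KD1 and KD2 libraries.

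Library totals ranged from 15963241 estimated counts (MEL1 SCR) to 43508287. Mitochondrially encoded genes took 2.53% to 3.62% of the counts in H1 and 4.82% to 6.79% in MEL1. Pluripotency markers summed to 946 to 1195 CPM (the read count normalised to library size by TMM scaling) in H1 and 1849 to 2887 CPM in MEL1, all 4 of them above 1 CPM, and neuroectoderm markers summed to 753 to 1356 CPM in H1 and 352 to 559 CPM in MEL1. Of the pluripotency sum LIN28A alone made 827 to 1132 CPM in H1 and 1517 to 1818 CPM in MEL1. POU5F1 was at 21.3 to 62.2 CPM in H1 and 240 to 879 CPM in MEL1. NANOG was at 1.52 to 8.60 CPM in H1 and 32.8 to 81.9 CPM in MEL1. Of the neuroectoderm sum in MEL1, SOX2 made 233 to 428 CPM and OTX2 73.0 to 125 CPM. PAX6, SIX3 and LHX2 were each at 42.3 CPM or more in H1 and at 2.92 CPM or less in MEL1. Neuron markers summed to 208 to 307 CPM and 64.3 to 107 CPM, neural crest markers to 20.6 to 33.4 CPM and 55.3 to 184 CPM, and mesoderm markers to 61.1 to 159 CPM and 60.5 to 106 CPM in H1 and MEL1. Of the mesoderm sum KDR alone made 59.6 to 157 CPM in H1 and 58.0 to 99.0 CPM in MEL1, while TBXT, MESP1, PECAM1 and HAND1 were each at 4.34 CPM or less. Endoderm and blood markers reached at most 8.95 CPM and 1.12 CPM in sum. These marker levels differ between the lines beside every line comparison below, and their part in it was not tested. In bulk libraries, fewer cells of a type and less RNA per cell cannot be told apart.

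**Figure D1:**
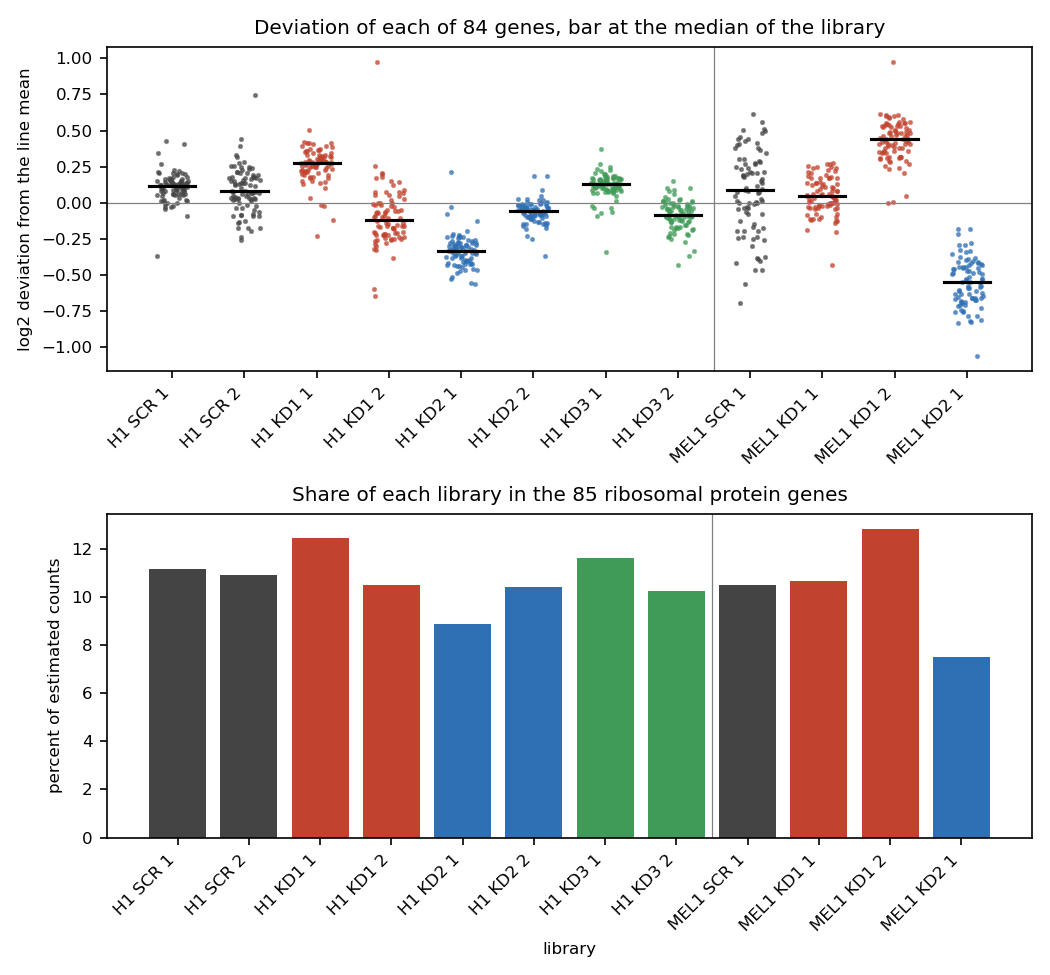
Upper panel: log2 deviation of each of the 84 tested genes from the mean of its cell line (y axis) in each library (x axis), with a bar at the median. Lower panel: share of estimated counts in the 85 genes, in percent. Colours mark SCR (grey), KD1 (red), KD2 (blue) and KD3 (green). Replicates of KD1 differ by a median of 0.39 in H1, and the MEL1 KD2 library lies lowest with a median of -0.55.

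Per length, the standard genes differed widely from each other. On the scale of CPM per kilobase of the principal transcript, averaged over the 12 libraries, the 77 standard genes ranged from 133 to 5708 with a median of 1787, and the middle 50% lay between 1116 and 2204. The highest levels were those of RPL41, at 5451 ± 751 (SD, n = 8) in H1 and 6222 ± 2185 (SD, n = 4) in MEL1, followed by RPS27 at 3937 ± 505 and 4455 ± 1209, in CPM per kilobase with the same n. RPL41 encodes the shortest ribosomal protein. RPL41 and RPS27 were apart in H1 by more than their SD, while in MEL1 their difference was smaller than the SD of RPL41. The SD spans libraries with different hairpins and is no test of this difference.

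The lowest level of a standard gene on this scale was that of RPS26, a protein at the messenger exit channel of the small subunit, with 110 ± 19.8 CPM per kilobase (SD, n = 8) in H1 and 178 ± 52.6 (SD, n = 4) in MEL1. By the mean over the 12 libraries RPL37 (183 ± 24.1 in H1), RPL27A (282 ± 46.7) and RPS28 (333 ± 49.3) came next. In H1 alone RPL9 lay between RPS26 and RPL37, at 142 ± 23.05. For RPL37, RPL27A and RPS28 the annotated principal transcript has 7686, 4916 and 1326 bases. Their coding parts have 291, 444 and 207 bases. Per kilobase of coding sequence their H1 levels were 4831, 3121 and 2132. Averaged over the 12 libraries RPS26 was lowest of the 77 on the coding scale too, at 240 CPM per coding kilobase. In H1 alone RPL9 was lower, at 185 against 199 for RPS26. The H1 level of RPL9 is uncertain, because whether it shares reads with an unnamed identifier described below was not tested. The 36 named pseudogenes of RPS26 took at most 3.81% of the family's counts in any library. Whether RPS26 shares reads with other sequences was not tested.

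Paralogs were expressed far below their standard genes. RPL36AL had 10.4% ± 0.771 of the CPM of RPL36A in H1 (SD, n = 8) and RPL7L1 had 8.61% ± 1.30 of RPL7. RPL22L1 was at 4.42% ± 1.41 of RPL22, RPL39L at 4.05% ± 0.614 of RPL39, RPS27L at 3.13% ± 0.449 of RPS27 and RPL26L1 at 2.16% ± 0.287 of RPL26. RPL3L, known from striated muscle, lay at 0.0642 to 1.08 CPM in H1, while RPL3 lay at 2450 to 3703 CPM. RPL10L, known from the male germ line, had no counts, while RPL10 lay at 1310.0 to 1936 CPM in H1 and 1118 to 2066 CPM in MEL1.

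METTL14 itself was checked first among the comparisons. It was at 29.8 and 43.8 CPM with SCR in H1, and between 8.89 and 17.7 CPM with a median of 12.3 CPM in the 6 H1 knockdown libraries. In MEL1 it was at 49.9 CPM with SCR, at 8.03 and 5.94 CPM with KD1 and at 8.95 CPM with KD2. All 9 knockdown libraries lay below the SCR libraries of their line, and over both lines METTL14 fell by 1.96 in log2 units, with an SE of 0.23 and an adjusted p of 0.00266 by edgeR.

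Over both lines, none of the 84 genes was called, that is, had a Benjamini-Hochberg adjusted p below 0.05 in edgeR's quasi-likelihood test. Of all 24898 tested genes 0.213% were called, 0.0562% higher and 0.157% lower. At an unadjusted p under 0.05 there were 5 of 84, where 15.7% of all genes were, and DESeq2 called 1, RPL22L1, where it called 2.76% of all genes. The median log2 fold change of the 84 genes was -0.12, against 0.05 over all tested genes, with 58 of them lower and 26 higher in knockdown libraries. With the library trends described below removed the median was -0.02, and without MEL1 KD2 it was -0.05. A model with a mean for each of the 7 groups, whose spread comes from replicates alone, called 8 of the 84 genes, all lower, where it called 10.8% of all genes: RPL12, RPL22L1, RPL26, RPL27, RPL39L, RPL7L1, RPS27A and RPS27L.

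The genes shifted together from library to library. Relative to the mean of the line, their median deviation in log2 units was 0.12 and 0.08 with SCR in H1, 0.28 and -0.12 with KD1, -0.33 and -0.06 with KD2, and 0.13 and -0.08 with KD3. In MEL1 it was 0.09 with SCR, 0.05 and 0.44 with KD1 and -0.55 with KD2. Between the KD1 replicates of H1, 82 of 84 genes were higher in replicate 1, by a median of 0.39. Between the KD2 replicates 83 of 84 were higher in replicate 2, the median of replicate 1 minus replicate 2 being -0.27, and in MEL1 83 of 84 were higher in KD1 replicate 2. All tested genes together had median differences of at most 0.01 between these replicates. The shift common to all members made up most of the variation: the SD of a gene's deviations over the 12 libraries had a median of 0.30, and 0.12 after each library's median was taken off. RPS9, chosen after its values were seen, kept the widest spread around the common shift (SD 0.44), with 327 and 709 CPM in the H1 SCR libraries.

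Related gene lists shifted with the members in some libraries and against them in others. In MEL1 KD2 the median deviation was -0.39 for 21 translation factors and other known TOP messages, -0.39 for 14 host genes of small nucleolar RNAs, -0.33 for 79 mitochondrial ribosomal proteins, -0.29 for 37 nuclear genes of respiratory complex I and -0.24 for 40 genes of ribosome assembly and RNA polymerase I. In MEL1 KD1 replicate 2 these medians were 0.24, 0.37, 0.32, 0.34 and 0.08, beside 0.44 for the members. In H1 KD1 replicate 1, where the members were at 0.28, they were 0.24, 0.25, -0.10, -0.03 and -0.21. In H1 KD2 replicate 1, with the members at -0.33, they were -0.25, -0.33, -0.07, -0.12 and 0.06. Translation factors and host genes thus had the sign of the members in these 4 libraries, and the assembly genes had the opposite sign in both H1 libraries.

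**Figure D2:**
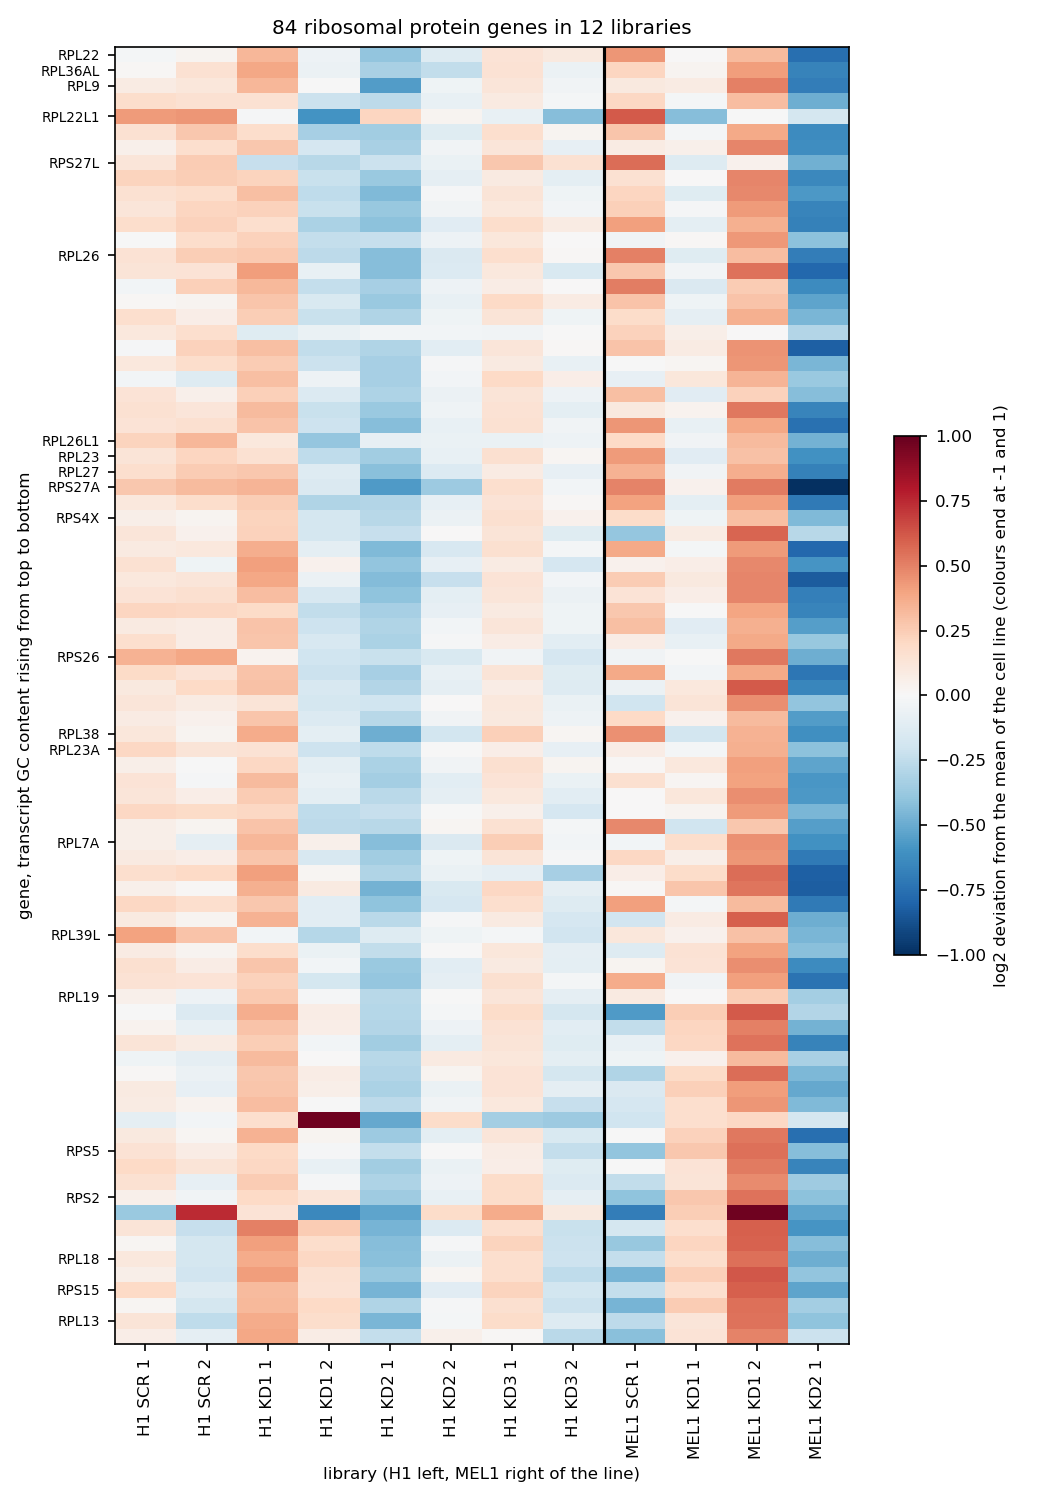
Log2 deviation of each tested gene (rows, transcript GC content rising from top to bottom, with names for genes called in any comparison) from the mean of its cell line in each library (columns). Red is higher and blue lower, with colours ending at -1 and 1. Nearly whole columns are blue in H1 KD2 replicate 1 (RPL22L1 being higher there) and in MEL1 KD2, while MEL1 SCR turns from red at low GC content (median 0.25) to blue at high GC content (median -0.10).

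In H1, the average of the 3 hairpins lowered 2 ribosomal protein genes, RPL39L and RPS26, and raised none. This is 2.38% of the 84, below the 7.16% called among all genes (4.93% lower and 2.23% higher). The median log2 fold change was -0.13, against 0.01 over all genes, and 67 of 84 genes were lower. The median was -0.06 with the library trends removed and -0.07 without KD1 replicate 2. In 9 of 84 genes (10.7%) all 6 knockdown libraries lay below both SCR libraries, close to the 11.7% of all tested genes for which this held: RPL17, RPL22L1, RPL26L1, RPL34, RPL39L, RPL7L1, RPS26, RPS6 and RPS7. In none did all 6 lie above, a pattern whose share among all tested genes was not computed.

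RPL39L, the paralog of a small protein lining the peptide exit tunnel, was at 45.7 and 42.0 CPM with SCR in H1, and at 28.2 to 33.9 CPM with a median of 32.4 CPM in the knockdown libraries. The groups did not overlap. On average it fell by 0.46 in log2 units (SE 0.11, adjusted p 0.0315, edgeR). After removal of the library trends with GC content and transcript length described below it fell by 0.40 (adjusted p 0.00692). The single hairpins, which share the SCR libraries, were at -0.50 (KD1), -0.44 (KD2) and -0.46 (KD3), of which KD1 was called (adjusted p 0.0419). Its standard gene RPL39 was at 951 and 968 CPM with SCR and at 632 to 1056 CPM with the hairpins, which overlap. Leaving out either SCR library, KD1 replicate 2, either KD2 library or KD3 replicate 2 ended the call of RPL39L, with adjusted p from 0.0576 to 0.167 and changes from -0.52 to -0.39.

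RPS26 was at 86.5 and 89.2 CPM with SCR and at 58.2 to 69.6 CPM with a median of 60.8 CPM in the H1 knockdown libraries, again without overlap. It fell by 0.49 (SE 0.13, adjusted p 0.042) and by 0.38 with the library trends removed (adjusted p 0.0157). The values for KD1, KD2 and KD3 were -0.45, -0.56 and -0.47. In MEL1 it was at 105 CPM with SCR and at 107, 156 and 76.6 CPM with the hairpins, a change of -0.07 (SE 0.19, adjusted p 0.893). The difference in its knockdown effect between the lines was 0.43 (SE 0.24, adjusted p 0.377) and thus not called. Upper-quartile scaling (adjusted p 0.0594) and a non-robust fit (0.0517) ended the call of RPS26 in H1. It was also not called there when any of the 8 H1 libraries was left out (adjusted p 0.0576 to 0.219), with changes of -0.52 to -0.45.

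With KD1 in H1, 2 of 84 genes were called (2.38%), both lower: RPL39L and RPS27L. Of all genes 11.1% were called, 4.25% higher and 6.83% lower. RPS27L, whose product can take the place of the small subunit protein RPS27, was at 47.3 and 51.9 CPM with SCR and at 37.0 and 35.8 CPM with KD1, a fall of 0.45 (SE 0.12, adjusted p 0.0333). It was at 37.4 and 41.5 CPM with KD2 and at 52.4 and 48.3 CPM with KD3, the last pair level with SCR. The median over the 84 genes was -0.01 with KD1, and it was -0.18 without KD1 replicate 1 and 0.18 without KD1 replicate 2. Upper-quartile scaling ended both calls, median-of-ratios scaling that of RPL39L and thinning to the smallest library that of RPS27L, and RPS27L had an adjusted p of 0.123 with the library trends removed. Leaving out either SCR or either KD1 library ended the call of RPS27L (adjusted p 0.0602 to 0.188), and leaving out any of 9 of the 12 libraries, all but H1 KD3 replicate 2, MEL1 KD1 replicate 2 and MEL1 KD2, ended that of RPL39L (adjusted p 0.0502 to 0.251).

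With KD2, every one of the 84 tested genes had a negative log2 fold change, with a median of -0.29 against 0.01 over all genes, and edgeR called none. Of all genes 1.54% were called, 0.691% higher and 0.851% lower. At an unadjusted p under 0.05 there were 14, where 16.1% of all genes were, a share close to that of the members. DESeq2 called 2, RPS26 and RPS27A (2.75% of all genes). Without a filter on low counts edgeR called 9, all lower, where 4.35% of all genes were called. Both KD2 libraries lay below both SCR libraries in 66 of 84 genes (78.6%), compared with 23.6% of all tested genes. The same held with KD1 in 10 genes (11.9%, against 28.8% of all genes) and with KD3 in 24 (28.6%, against 24.1%). The 2 KD2 libraries were unequal, with the median at -0.42 without KD2 replicate 2 or at -0.16 without KD2 replicate 1. The lowest value was that of RPS27A, which encodes ubiquitin joined to a small subunit protein: 1470 and 1518 CPM with SCR, and 824 and 946 CPM with KD2, a difference of -0.76 in log2 units (SE 0.19, adjusted p 0.083). With the library trends removed RPS27A (-0.60, adjusted p 0.0302) and RPS26 (-0.42, adjusted p 0.0496) were called with KD2, where 3.9% of all genes were.

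With KD3 no gene was called by edgeR, where 2.98% of all genes were (1.19% higher, 1.79% lower), 4 had an unadjusted p under 0.05 (19.0% of all genes) and DESeq2 called 1, RPL22L1 (4.07%). The median was -0.07 against 0.02 over all genes, -0.18 without KD3 replicate 1, 0.02 without KD3 replicate 2 and -0.01 with the library trends removed. With the library trends removed RPL39L and RPS26 were called, both lower, where 7.31% of all genes were. Between the 3 H1 hairpins no gene differed at the threshold (3.54% of all genes did), 9 had an unadjusted p under 0.05 (20.0% of all genes) and DESeq2 called 5, RPL11, RPL36, RPS27A, RPS27L and RPS3 (5.48%). With the library trends removed 3 were called (7.23% of all genes), RPL36AL, RPS27A and RPS3, and without a filter on low counts 18 (8.43%). The lowest adjusted p values were those of RPS27L (0.0818), RPL3L (0.16), RPL36 (0.162) and RPS27A (0.171). RPL36, a large subunit protein, was at 635 and 533 CPM with KD1, 324 and 406 CPM with KD2 and 502 and 383 CPM with KD3.

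In MEL1, the average of KD1 and KD2 against the single SCR library gave 3 called genes of 84 (3.57%), all lower: RPS27L, RPL22 and RPS27A. Of all genes 4.45% were called, 2.93% higher and 1.51% lower. The spread of the groups with 1 library was taken as that of the other groups. The median over the 84 genes was -0.25 against 0.07 over all genes, and 29 had an unadjusted p under 0.05, where 22.7% of all genes had. Without the MEL1 KD2 library the median was 0.18, without KD1 replicate 1 it was -0.17, and with the library trends removed it was -0.10. DESeq2 called 24 genes, 23 of them lower, where it called 5.18% of all genes, and edgeR without a filter on low counts called 30, 25 of them lower, where 6.73% of all genes were called.

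RPS27L was at 146 CPM with SCR, 90.4 and 102 CPM with KD1 and 70.7 CPM with KD2, so that all 3 knockdown libraries lay below SCR. It fell by 0.82 in log2 units (SE 0.13, adjusted p 0.0144), by 0.60 without the KD2 library (adjusted p 0.0273), and its value was -0.60 with the library trends removed (adjusted p 0.0597). RPL22, which binds structured RNA on the ribosome surface, was at 1226 CPM with SCR, 904 and 1123 CPM with KD1 and 536 CPM with KD2. It fell by 0.73 (SE 0.18, adjusted p 0.0461), and its value was -0.28 without the KD2 library (adjusted p 0.402) and -0.52 with the library trends removed (adjusted p 0.0933). RPS27A was at 2112 CPM with SCR, 1546 and 2149 CPM with KD1 and 719 CPM with KD2. It fell by 0.87 (SE 0.22, adjusted p 0.0465), and its value was -0.19 without the KD2 library (adjusted p 0.642). A non-robust fit ended its call (adjusted p 0.0508). Leaving out any of 10 libraries for RPL22 and any of 9 for RPS27A gave an adjusted p of 0.0509 or more and 0.0516 or more.

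The difference of the knockdown effect between the lines was called for none of the 84 genes by edgeR (0.598% of all genes, 0.454% higher and 0.145% lower), at an unadjusted p under 0.05 for 4 (17.2% of all genes), and by DESeq2 for 1, RPL22 (1.76%). For RPL22 the difference was -0.68 (SE 0.23, adjusted p 0.171). The median of the difference was -0.11, and 0.16 without MEL1 KD2.

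The stalk proteins RPLP0, RPLP1 and RPLP2, which recruit elongation factors to the ribosome, were not called in either line. In H1 their values were -0.07, -0.10 and 0.02 and in MEL1 0.06, 0.42 and 0.47 (adjusted p 0.921, 0.306 and 0.199). With the library trends described below removed, the 3 stalk genes had a MEL1 median of 0.07, with values from 0.05 to 0.59. RPL5 was at -0.02 in H1 and -0.48 in MEL1, and RPL11 at -0.14 and -0.52, with adjusted p of 0.185 and 0.161 in MEL1. RPS6, the substrate of S6 kinase, was at -0.22 and -0.37, and RPS19 at -0.05 and 0.22. The standard large subunit genes (43) had a median of -0.12 in H1 and -0.29 in MEL1, and the small subunit genes (31) had -0.14 and -0.19. These medians, after removal of the library trends, were -0.03 and -0.17 for the large and -0.09 and -0.03 for the small subunit, and without MEL1 KD2 the MEL1 median over all 84 genes was 0.18.

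GC content of the transcript ran with these values. Across the 84 genes the MEL1 log2 fold change and GC content had a Spearman rho of 0.689, and the H1 average 0.508. Genes of 1 library share its depth and composition, so these are descriptions. The 42 genes below the median GC content of 49.5% had a median MEL1 change of -0.47, and the 42 at or above it had 0.01. Among 15518 other genes, a library's deviation from its line and GC content had a Spearman rho of 0.208 and -0.424 in H1 SCR, 0.299 and 0.553 in H1 KD1, -0.213 and 0.12 in H1 KD2 and 0.0135 and -0.486 in H1 KD3, and by -0.544 in MEL1 SCR, 0.348 and 0.421 in MEL1 KD1 and -0.0522 in MEL1 KD2. With transcript length the rho lay between -0.429 and 0.265.

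When a smooth trend on GC content and length, fitted on the other genes, was removed from each library, the rho of the 84 genes was 0.339 in MEL1 and 0.187 in H1, and the median change of the low-GC genes in MEL1 was -0.17. In MEL1 4 genes were then called, where 3.55% of all genes were: RPL12, RPL31 and RPS27A lower and RPS28 higher. RPS28 was at 295 CPM with SCR and at 519, 667 and 356 CPM in the knockdown libraries, 0.60 on the log2 scale with the trend removed (adjusted p 0.0479) and 0.64 without (adjusted p 0.104). In H1 the calls of RPL39L and RPS26 held with the trend removed, where 11.6% of all genes were called.

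**Figure D3:**
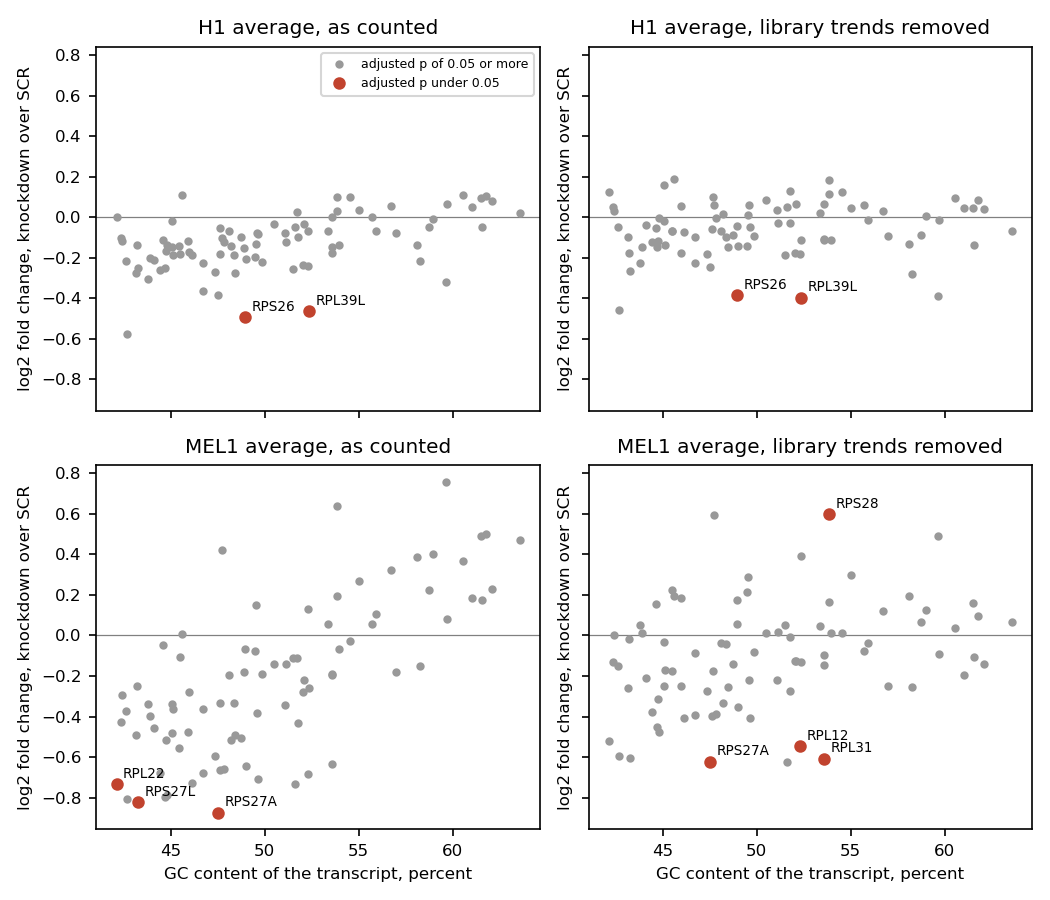
Log2 fold change of knockdown over SCR (y axis) of the 84 genes against the GC content of their transcripts in percent (x axis), for H1 (top) and MEL1 (bottom), as counted (left) and with the library trends removed (right). Red points have an adjusted p under 0.05. The slope in MEL1 as counted (rho 0.689) is smaller on the right (rho 0.339).

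RPL22L1, RPL26L1, RPL7L1, RPL36AL and RPL3L were not called for knockdown by edgeR with the filter, TMM scaling and contrasts used throughout. Under other settings RPL22L1 was called, each time lower: by DESeq2 and by edgeR without a filter on low counts in the H1 average, with KD1, with KD3 and in MEL1, with counts thinned to the smallest library with KD1 and in MEL1, and with total counts with KD1. RPL7L1 was called lower in MEL1 by DESeq2 and with a minimum mean of 1 CPM, and the model with a mean for each group called both over both lines. RPL22L1 was at 46.8 and 47.4 CPM with SCR in H1, and at 22.8 to 40.3 CPM with a median of 33.7 CPM with the hairpins, without overlap. In MEL1 it was at 92.1 CPM with SCR, 44.6 and 60.0 CPM with KD1 and 53.1 CPM with KD2. By edgeR its log2 fold change was -0.65 over both lines (SE 0.15, adjusted p 0.0841), and -0.50 with the library trends removed (adjusted p 0.121). It lay below its line's SCR in 9 of 9 knockdown libraries, as did RPL17 and RPL7L1. For MEL1 this rests on 1 SCR library, and the share of all genes with this pattern was not computed. RPL22, the standard gene of RPL22L1, was at 811 and 837 CPM with SCR in H1 and at 625 to 1033 CPM with the hairpins there. RPL26L1 was at 33.8 and 36.5 CPM with SCR and at 22.1 to 31.1 CPM with the hairpins in H1 (-0.37, adjusted p 0.134). RPL7L1, known from work on the assembly of the large subunit, was at 173 and 181 CPM and at 148 to 161 CPM (-0.18, adjusted p 0.175). RPL36AL was at 86.7 and 95.5 CPM and at 68.6 to 112 CPM, which overlap. The standard genes RPL3, RPL7, RPL10, RPL26 and RPS27 were at 0.00, -0.28, -0.07, -0.25 and -0.10 in the H1 average (adjusted p 0.304 or more) and at 0.06, -0.49, 0.10, -0.80 and -0.51 in MEL1, the lowest adjusted p being that of RPL26 (0.0651).

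**Figure D4:**
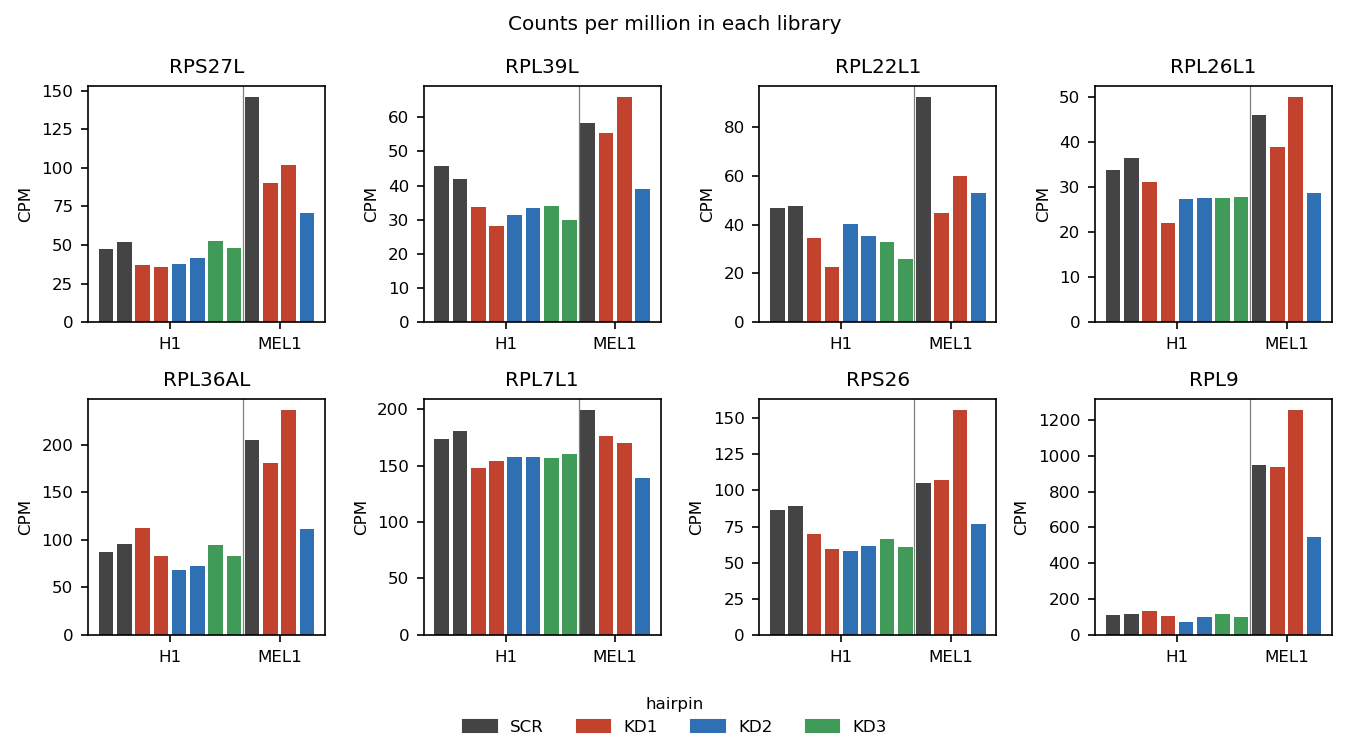
CPM (y axis) of 6 paralogs, RPS26 and RPL9 in each of the 12 libraries, H1 left and MEL1 right of the grey line, coloured by hairpin. RPL39L, RPL22L1, RPL26L1, RPL7L1 and RPS26 are lower in all 6 H1 knockdown libraries than in both SCR libraries, and RPS27L and RPL9 are higher in all 4 MEL1 than in all 8 H1 libraries.

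The lines differed in 20 of the 84 genes (23.8%), whereas 49.1% of all tested genes differed. The comparison averaged SCR, KD1 and KD2 in each line. In MEL1, 13 genes were higher, where 23.0% of all genes were, and 7 were lower, where 26.2% were. The median over the 84 genes was -0.02 against -0.09 over all. With the library trends removed 49 genes were called, 12 higher and 37 lower (52.8% of all genes), and with total counts in place of scaling factors 41, 13 higher and 28 lower (49.7%), so the number of lower calls depends on these settings. It also turns on single libraries: without MEL1 KD2 there were 18 higher and 1 lower, and without H1 KD1 replicate 1, H1 SCR replicate 1, MEL1 KD1 replicate 1 or MEL1 SCR there were 3, 4, 4 and 4 lower. For the fits without 1 library the share called among all genes is not given. The median was 0.14 without MEL1 KD2 and -0.20 with the library trends removed. All 7 paralogs tested had a positive value, with a median of 0.78, and 5 of them were called: RPS27L, RPL36AL, RPL22L1, RPL39L and RPL26L1. With the library trends removed RPL26L1 was at 0.16 (adjusted p 0.113) and the other 4 remained called. Of the 7 paralogs, 6 were then higher and 1 lower, with a median of 0.65 and a lowest value of -0.01. RPL3L, which is among the 7, had only 3 to 46 counts per library.

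RPL9, a protein of the large subunit, had the largest difference among the called genes. It was at 71.4 to 133 CPM with a median of 108 CPM in the 8 H1 libraries and at 949, 937, 1256 and 549 CPM in the MEL1 libraries, 2.98 higher on the log2 scale (SE 0.13, adjusted p 2.14e-08). Its 18 named pseudogenes took at most 0.444% of the family's counts, and summing them in gave 2.98 again. The identifier ENSG00000273673, chosen after its values were seen and given no name by the tables used, ran the other way, from 1454 to 2376 CPM in H1 and at 1038, 1050, 1356 and 567 CPM in MEL1. Added to RPL9, the sum was 1526 to 2508 CPM in H1 and 1987, 1986, 2612 and 1116 CPM in MEL1, which overlap. Whether the identifier shares reads with RPL9 was not tested.

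RPS27L was at 35.8 to 52.4 CPM in H1 and at 70.7 to 146 CPM in MEL1, with no overlap, 1.27 higher on the log2 scale (SE 0.08, adjusted p 1.63e-07). RPL36AL was at 68.6 to 112 CPM in H1 and at 205, 180, 236 and 111 CPM in MEL1, 0.97 higher (SE 0.11, adjusted p 2.19e-05), while RPL36A was at -0.09 (adjusted p 0.609). RPL36AL was thus 10.4% ± 0.771 of RPL36A in H1 and 21.5% ± 1.55 in MEL1 (SD, n = 8 and 4). RPL22L1 was 0.78 higher (SE 0.14, adjusted p 0.000803) and RPL39L 0.55 higher (SE 0.09, adjusted p 0.000449). All 4 MEL1 libraries lay above all 8 H1 libraries for 3 of the 84 genes (3.57%, against 12.3% of all genes), RPL9, RPS27L and RPL23A, and below them for none (13.0% of all genes). For RPL23A, chosen after its values were seen, pseudogenes took 46.5% to 59.5% of the family's counts, and its line difference was 0.69 alone and 0.77 with them.

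Of the 7 genes lower in MEL1, the 4 with the largest difference were RPL18 (-0.56, adjusted p 0.0034), RPL13 (-0.45, adjusted p 0.0208), RPS15 (-0.42, adjusted p 0.0219) and RPS4X (-0.37, adjusted p 0.0172), all standard components. RPL18 was at 735 to 1268 CPM in H1 and at 616, 821, 1064 and 519 CPM in MEL1, and RPL13 at 1259 to 2247 CPM and at 1145, 1491, 1995 and 1035 CPM, so both overlap between the lines. RPS4X was at 1187 to 1676 CPM in H1 and at 1273, 1090, 1386 and 825 CPM in MEL1. Without MEL1 KD2 RPS4X was at -0.24 (adjusted p 0.172). RPL13 lost its call without H1 SCR replicate 1, H1 KD1 replicate 1, MEL1 SCR, MEL1 KD1 replicate 1 or MEL1 KD2 (adjusted p 0.0507 to 0.0777), and RPS15 without any of 6 libraries, the same 5 and H1 KD2 replicate 2 (adjusted p 0.0501 to 0.106).

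**Figure D5:**
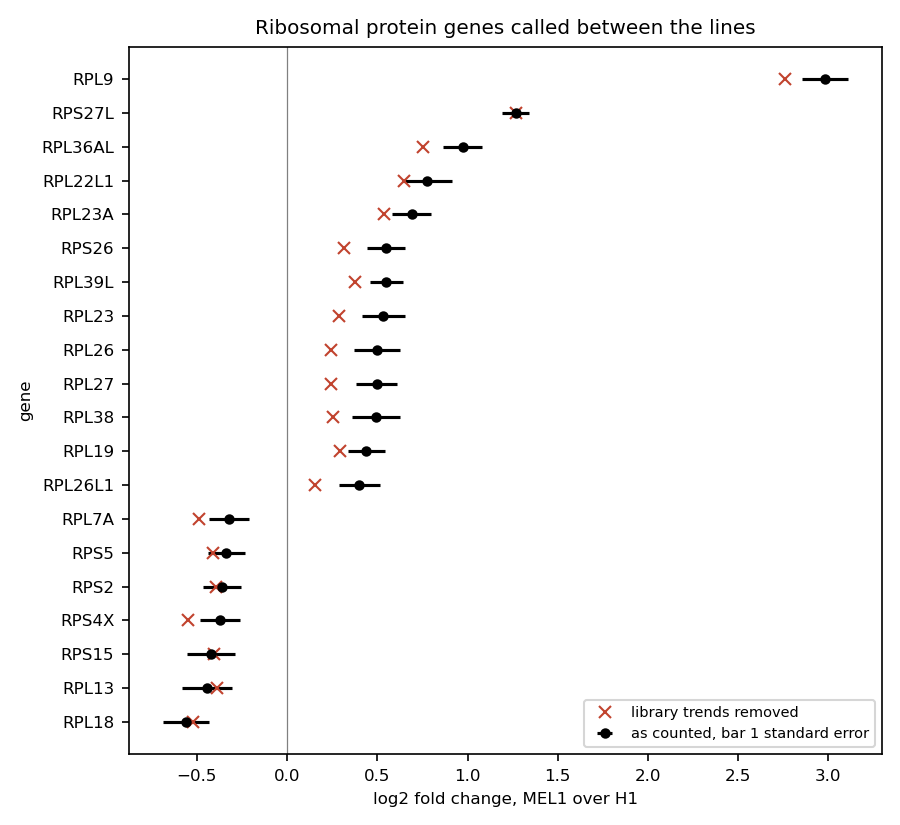
Log2 fold change of MEL1 over H1 (x axis) of the 20 called genes (y axis). Black points are values as counted with 1 standard error, and red crosses are values with the library trends removed. RPL9 stands at 2.98, and the crosses lie to the left of the points for most of the higher genes.

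Related gene lists gave other counts. In the H1 average 22 of 79 mitochondrial ribosomal proteins were called, all lower, with a median of -0.29, MRPL13 at -0.77 (SE 0.14, adjusted p 0.0139) being the lowest. Of 37 nuclear genes of complex I 13 were called, all lower, with a median of -0.39. Of 40 genes of ribosome assembly and RNA polymerase I 8 fell and 1, TAF1C, rose, with a median of -0.25, and among those that fell were NOP56 (-0.37) and DKC1 (-0.34), components of the particles that modify ribosomal RNA. Only NPM1 (-0.48, adjusted p 0.0481) was called among 21 translation factors and other known TOP messages, and none among 14 host genes of small nucleolar RNAs. The share called among all genes was 7.16%. With the library trends removed 23 mitochondrial ribosomal proteins fell and 1 rose, 19 complex I genes fell, and 15 assembly genes fell and 1 rose. No translation factor or other TOP message was then called, and 1 host gene rose, where 11.6% of all genes were called.

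In MEL1 6 assembly genes fell, GNL3 (-1.06) and NCL (-0.76) among them, 3 of the translation factors and other TOP messages fell, NPM1, NAP1L1 and PABPC4, 4 mitochondrial ribosomal proteins fell and MRPS2 rose, and 2 complex I genes, NDUFV1 and NDUFB7, rose. No host gene was called. Of all genes 2.93% were higher and 1.51% lower. With the library trends removed 5 assembly genes and 2 of the translation factors and other TOP messages fell. Of the mitochondrial ribosomal proteins 3 then rose and 2 fell. In the same setting 1 host gene rose and no complex I gene was called, where 3.55% of all genes were called. Over both lines no gene of these lists was called. Between the lines, 52 of 79 mitochondrial ribosomal proteins were higher and 2 lower in MEL1, 34 of 40 assembly genes were higher and 1 lower, and 19 of 37 complex I genes were higher and 2 lower. Of the host genes 5 were higher and 4 lower, and of the translation factors and other TOP messages 5 and 3, where 23.0% of all genes were higher and 26.2% lower. With the library trends removed the higher and lower counts of these 5 lists, in the same order, were 50 and 4, 32 and 1, 20 and 4, 5 and 6, and 3 and 6. Of all genes 52.8% were then called.

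Neither sequence feature separated the knockdown values. In the H1 average the 46 genes with a TOP start had a median log2 fold change of -0.13 and the 21 tested genes without it -0.12. In MEL1 the medians were -0.21 and -0.29. The 44 genes with GGACT in their transcript had medians of -0.14 in H1 and -0.26 in MEL1, and the 40 without it -0.11 and -0.24. Levels per kilobase also overlapped, with medians of 1466 and 1563 CPM per kilobase with and without a TOP start and 1462 and 1824 with and without GGACT. These are descriptions with no test.

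Counts of some members are uncertain where similar sequences could share reads, which was not tested. Of the 78 genes with named pseudogenes, 6 had 10% or more of the family's counts in pseudogenes in at least 1 library: RPL23A, RPL21, RPS2, RPS28, RPL36A and RPL22. Each member summed with its pseudogenes gave the same counts of called genes in the H1 average, with KD1 and in MEL1, and 19 in place of 20 between the lines. RPL7A and RPS25 each had an unnamed identifier with identical counts in every library, so the counts of both genes are uncertain. Those of RPL9 are uncertain too, beside the unnamed identifier that ran the other way between the lines.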

How the data were processed

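RNA of the 12 libraries was sequenced after a stranded total RNA library preparation, per the labels' protocols. The deposited values are estimated counts per gene identifier, made by the authors with fastp and kallisto, per the submitters' processing notes. Which versions, strand option, annotation and build they used is not given in the sources used here. The estimated counts were rounded, and 24898 of 65969 identifiers passed edgeR's filterByExpr over the 7 groups. Symbols came from a table of 59243 identifiers, transcript lengths and GC content from GENCODE 29 (GRCh38), in which all 85 members had an entry, and start windows from RefSeq (GRCh38.p14).

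Counts were scaled by TMM and tested with edgeR 4.0.16 (robust quasi-likelihood fit, limma 3.58.1, R 4.3.3) with Benjamini-Hochberg adjustment over all tested identifiers and a threshold of 0.05. The both-lines comparison set 9 knockdown libraries against 3 SCR libraries with the line as covariate, and the others are contrasts of the 7 group means. Comparisons of single H1 hairpins share the H1 SCR libraries. Library deviations used log2 of CPM plus 0.5. Library trends were splines on GC content and length fitted on genes other than the members. DESeq2 1.42.0 and other scalings and filters were alternatives. Shares for DESeq2 are over 40154 identifiers, those without an adjusted p counting as not called. The fits were tested on simulated data.

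Members and lists were chosen with earlier results of these data known. Named with values are METTL14, the paralogs and their standard genes, the 4 highest and 4 lowest levels per length, the 4 largest called differences in each direction in the H1 and line comparisons at a mean of 10 CPM or more, the 4 most different between hairpins, the stalk genes, RPL5, RPL11, RPS6, RPS19 and RPS26. Other genes are named where a count was small, after their values were seen. Precision is limited by 1 or 2 libraries per group, and MEL1 SCR has the lowest depth. Some genes that this rule or the lists include are not reported here.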

Additional observations from a re-analysis of the deposited data

Results flagged for a closer look

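RPL3L was at 1.08 CPM in H1 KD1 replicate 2, apart from the other 5 H1 knockdown libraries, which lay between 0.0642 and 0.415 CPM. The gap to the nearest library was 0.654 of the range of the 6 libraries, above Dixon's 95% critical value for 6 samples. Of 39 results tested in this way 1 was singled out, and chance does so in about 1 of 20.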

How the results depend on the processing

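Over both lines 0 genes were called, 8 with a mean for each group and 1 by DESeq2. In the H1 average the 2 calls became 1 with upper-quartile scaling, 5 without a filter on low counts and 1 with a non-robust fit, RPS26 being the call lost. With KD1 the 2 calls became 1 with median-of-ratios scaling, 0 with upper-quartile scaling, 6 without the filter and 1 with the library trends removed. With KD2 the 0 calls became 9 without the filter, 2 with the trends removed and 2 by DESeq2, and with KD3 2, 2 and 1. In MEL1 the 3 calls became 5 with total counts, 30 without the filter and 24 by DESeq2, and 2 with a non-robust fit, without RPS27A. Between hairpins there were 18 without the filter, 3 with the trends removed and 5 by DESeq2. Between the lines the 20 became 41 with total counts and 49 with the trends removed. For the line difference of the knockdown effect there were 3 without the filter and 1 by DESeq2. The share called among all genes moved with the setting as well. In MEL1 it was 4.45% with the filter, 6.73% without it and 5.18% by DESeq2. For several of these settings, and with 1 library left out, that share is not given. The counts there are thus not results about the members alone. The cause of these differences was not tested. The share of counts in H1 SCR, 11.05%, was 11.6% of protein-coding counts and 11.4% without mitochondrially encoded genes.

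Leaving out 1 library at a time gave 0 to 2 calls in the H1 average, 0 to 4 with KD1, 0 to 1 with KD2, 1 to 5 in MEL1, 16 to 24 between the lines and 0 elsewhere. The median log2 fold change then ran from -0.34 to 0.18 in MEL1 and from -0.22 to 0.16 for the line difference, both upper values being those without MEL1 KD2. Leaving out MEL1 SCR gives no value for these comparisons. METTL14 stayed past the threshold in all 25 alternatives over both lines. No value that was called changed sign in the alternatives run. No paired analysis was possible because the labels carry no replicate numbers. Counting each identifier as deposited was not run separately, since no member symbol had more than 1 identifier.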
